A study of Mus musculus with 32 samples.

Results

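The 10 genes described here encode proteins that visceral endoderm, and later the fetal liver, secretes into its surroundings. They are *Afp* (alpha-fetoprotein), *Ttr* (transthyretin), *Rbp4* (retinol-binding protein 4) and the apolipoproteins *Apoa1*, *Apoa2*, *Apoa4*, *Apob*, *Apoc2*, *Apoe* and *Apom*. They were taken by gene symbol, and all 10 were found among the 54233 genes of the expression table. The 32 samples were mouse embryonic stem (mES) cells of the KH2 line, strain C57BL/6 as labelled, which carry the transgene TRE:GATA6-DSREd2, a doxycycline (Dox)-driven GATA6, as a single copy. All groups carried it, and all came from this 1 line. The 8 groups were collected at 0, 2, 4, 8, 16, 24, 48 and 96 h, with 4 replicates each. The 0 h cells grew in 2i medium with LIF and no Dox, and the later samples in serum medium with LIF and 1 µg/ml Dox. Dox was removed after 12 h, so the samples from 16 h on had 12 h of it. The change of medium and the addition of Dox coincide between 0 h and every later time, and their parts in a difference from 0 h cannot be told apart.

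In the mouse embryo, primitive endoderm (PrE) gives rise to visceral endoderm, which surrounds the epiblast, and to parietal endoderm. Visceral endoderm takes up maternal protein and lipid from its outer face and exports lipoproteins and carrier proteins to the embryo. ApoB is the structural protein of lipoprotein particles and is loaded with lipid by the product of *Mttp*. ApoA-I, ApoA-II, ApoA-IV and ApoM travel on high-density lipoprotein, ApoC-II activates lipoprotein lipase, and ApoE is the ligand by which receptors clear particles. Transthyretin and RBP4 carry thyroxine and retinol in plasma as a joint complex, and AFP is the main serum protein of the fetus.

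The genes did not behave as a group. At 48 h and 96 h *Apom*, *Ttr* and *Rbp4* were higher than at 0 h, *Apoa2* was lower at both times, and *Apoe*, by far the most abundant of the 10, was lower at 96 h. The other 5 (*Afp*, *Apoa1*, *Apoa4*, *Apob* and *Apoc2*) stayed close to the limit of detection in all 32 samples. The name visceral endoderm secreted proteins therefore fits the roles of these genes better than their levels here, and they are called the plasma protein genes in what follows.

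The cells themselves carried defining transcripts of visceral endoderm and of parietal endoderm. Of 10 visceral endoderm markers outside the plasma protein genes, 9 were called higher at 48 h, and their summed level went from between 709 and 1168 normalized counts at 0 h to between 26176 and 50105 at 48 h and between 22341 and 30969 at 96 h. Of 8 parietal endoderm markers 6 were called higher at 96 h, and their sum went from between 6435 and 6744 at 0 h to between 65396 and 97483 at 48 h and between 127560 and 153470 at 96 h. Single genes made up most of these late sums, *Cubn* (mean 27062 at 48 h) and *Sparc* (66186 at 48 h). The visceral marker not called was *Slc39a4* (359 at 0 h, 1061 at 48 h, 248 at 96 h). The parietal markers not called were *Vim* (1777 at 0 h, 1212 at 96 h) and *Fst* (535 and 2010). At 96 h 7 of 8 ES cell markers were called lower. Of all tested genes 8.48% were called higher at 48 h, and 9.28% higher and 10.3% lower at 96 h. Among markers of other cells, 3 of the 5 tested trophoblast markers (*Gata3*, *Krt7* and *Hand1*) and 1 mesoderm marker (*Kdr*) were higher at 96 h, while the 4 fibroblast markers summed to at most 33.2 in any sample. *Alb*, the liver albumin gene next to *Afp*, had at most 1 read in a sample. The part of cell mixture in the changes below was not tested. In bulk RNA, a change in the number of expressing cells and a change of RNA per cell cannot be told apart.

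Levels are given as normalized counts, the reads on a gene divided by the size factor of its sample. The samples held between 3190108 and 12301732 reads on genes (median 8870662.5). A gene was tested if it reached 10 normalized counts in at least 4 samples, which 15227 genes and 5 of the 10 plasma protein genes did. Fold changes are differences of mean log2(normalized count + 1), which understate the change of low genes, and a gene was called with a false discovery rate (FDR) below 0.1 and a change of at least 4-fold. The study's reporting form describes replicate experiments as independent, without naming separate cultures for this assay, and the labels do not say, so p-values measure the spread between these samples, part of which may be technical. Replicates 1 and 2 differed from replicates 3 and 4 across the transcriptome, so values within these 2 sets are given where a result is described. Pairs of samples of 1 time point had a median chi-square per degree of freedom of 1.675 within sets and 12.91 between sets. The p-values treat the 4 replicates as separate and may therefore be too small. With replicates averaged within sets, the limma adjusted p of *Apom* at 48 h against 0 h was 3.9e-07 in place of 3.3e-16. Every call of the 5 tested genes kept an adjusted p below 0.1 in that fit. *Apoe* was higher in both of replicates 1 and 2 than in both of replicates 3 and 4 at all 8 time points, and *Apoa2* at 6 of 8.

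To show what lies before the starts of genes that behaved differently, the bases just upstream of the RefSeq start (GRCm38.p6) are printed 5' to 3' for *Apoe*, abundant and falling late, *Apoa2*, falling early, *Afp*, near 0, and *Apoc2*, with a single read. The stretches are chr7:19699189-19699438 (minus strand), chr1:171224804-171225053 (plus), chr5:90490464-90490713 (plus) and chr7:19677942-19678061 (minus). Capitals mark 3 kinds of word on either strand. The words for GATA factors were AGATAA and, differing in its first letter, also TGATAA. Those for a nuclear receptor half-site were AGGTCA and, again with another first letter, also GGGTCA. Those for FOXA factors were TGTTTAC and, with another letter before the last, also TGTTTGC.
Apoe: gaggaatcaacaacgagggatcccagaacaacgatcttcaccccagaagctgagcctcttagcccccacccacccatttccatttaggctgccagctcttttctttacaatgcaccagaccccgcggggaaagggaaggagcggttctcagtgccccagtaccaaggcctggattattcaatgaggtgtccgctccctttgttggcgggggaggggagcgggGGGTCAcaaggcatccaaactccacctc
Apoa2: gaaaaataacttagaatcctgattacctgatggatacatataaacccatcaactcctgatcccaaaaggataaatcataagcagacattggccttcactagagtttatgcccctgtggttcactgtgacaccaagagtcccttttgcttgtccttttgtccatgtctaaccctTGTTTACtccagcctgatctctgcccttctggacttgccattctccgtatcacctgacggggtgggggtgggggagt
Afp: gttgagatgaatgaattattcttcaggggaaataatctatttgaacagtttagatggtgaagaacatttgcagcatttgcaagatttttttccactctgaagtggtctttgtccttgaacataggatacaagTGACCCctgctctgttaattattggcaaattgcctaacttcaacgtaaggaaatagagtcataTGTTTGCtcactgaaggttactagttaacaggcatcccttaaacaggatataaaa
Apoc2: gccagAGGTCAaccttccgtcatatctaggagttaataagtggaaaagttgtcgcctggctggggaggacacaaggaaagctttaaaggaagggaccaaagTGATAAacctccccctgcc

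A window of 250 bases upstream of the start was found in RefSeq for 9 of the 10 genes, and the one nearest to the annotated start was used. The GATA words occurred in 1 of 9 (*Apoc2*), against 16.6% of 32851 mouse promoter windows of the same length. The nuclear receptor half-site occurred in 5 of 9 (*Afp*, *Rbp4*, *Apom*, *Apoc2* and *Apoe*), against 23.8%. In *Apom* it lay within the gene as annotated here. The FOXA words occurred in 5 of 9 (*Afp*, *Rbp4*, *Apoa1*, *Apoa2* and *Apob*), against 7.29%. Windows with the same words belonged to genes that rose, fell and were not detected. The words are descriptions of the sequence, and no binding was measured here.

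**Figure D1:**
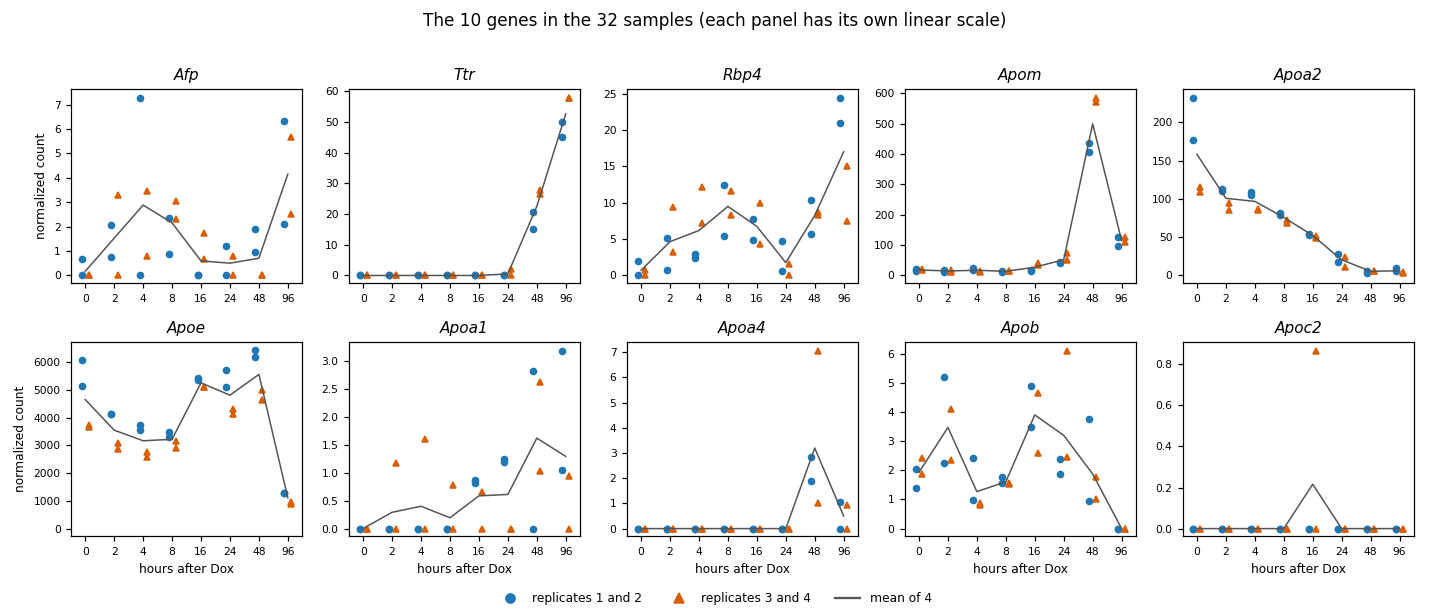
Normalized counts (vertical, linear, a scale for each panel) of the 10 plasma protein genes at 0 to 96 h (horizontal); each point is 1 sample, circles are replicates 1 and 2, triangles replicates 3 and 4, and the line joins the means of 4. *Apoe* lay between 2579 and 6435 until 48 h, *Apom* peaked at 48 h between 407 and 585, *Ttr* was in all samples from 48 h on, *Apoa2* declined until 48 h, and the panels of *Afp*, *Apoa1*, *Apoa4*, *Apob* and *Apoc2* span no more than a few reads.

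*Apom* encodes a lipocalin of high-density lipoprotein that carries sphingosine-1-phosphate. Its gene lies on the minus strand at chr17:35128997-35132050 (GRCm38, GENCODE annotation, as for all genes here). At 0 h its normalized counts in replicates 1 to 4 were 22.1, 13.6, 20.2 and 17.0. At 24 h they were 43.2, 41.9, 73.1 and 49.7, already all above the 0 h samples. The 48 h samples held 436, 407, 585 and 571. By 96 h the counts were 97.6, 125, 126 and 111. Each 48 h sample was thus higher than any sample of another time, and the 96 h samples lay between the 24 h and the 48 h ones without overlap with either.

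Relative to the 0 h mean, *Apom* was 27.5 times as high at 48 h, and its ratio was 6.30 by 96 h. Its log2 fold change against 0 h was 1.45 ± 0.26 (SE) at 24 h (limma adjusted p = 1.8e-05, under 4-fold), 4.71 ± 0.26 at 48 h (adjusted p = 3.3e-16) and 2.61 ± 0.26 at 96 h (adjusted p = 1.9e-10). Within replicates 1 and 2 the 48 h change was 4.52, and within replicates 3 and 4 it was 4.89. From 24 h to 48 h *Apom* rose by 3.26 ± 0.26 (adjusted p = 1.5e-11), and from 48 h to 96 h it fell by 2.10 ± 0.26 (adjusted p = 7.9e-08). In replicates 1 and 2 alone the second change was -1.92, under 4-fold.

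*Ttr* (plus strand, chr18:20665280-20674321), the thyroxine carrier, had no read in any of the 20 samples from 0 h to 16 h. At 24 h replicate 3 held 1 read and the other three none. At 48 h the normalized counts were 15.1, 20.7, 26.4 and 27.9 (11 to 30 reads). The 96 h samples held 49.9, 45.2, 57.7 and 57.7 (43 to 61 reads). All 8 late samples therefore held *Ttr*, and the 96 h samples were all above the 48 h samples. Against a floor of 3 reads per library at 0 h, which covers counting error only, *Ttr* was at least 6.31-fold higher at 48 h and at least 14.8-fold higher at 96 h. The limma call was positive at both times (adjusted p = 7.9e-14 and 1.5e-16). *Ttr* reached 10 normalized counts only in the 8 samples of these times, so it was tested only because it was high then. These calls therefore add no independent support to the read counts. The further step from 48 h to 96 h was 1.22 ± 0.31 on the log2 scale (adjusted p = 0.0017), under the 4-fold limit, and was 1.38 in replicates 1 and 2 and 1.06 in replicates 3 and 4. *Ttr* rose over the interval in which *Apom* fell.

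*Rbp4* (minus strand, chr19:38116629-38125281), the retinol carrier that pairs with transthyretin in plasma, was low throughout but changed more than once. At 0 h replicates 1 to 4 held 0, 3, 1 and 0 reads. At 8 h they held 7, 14, 15 and 11 reads, or normalized counts of 5.50, 12.5, 11.7 and 8.36. At 24 h they held 4, 1, 0 and 2 reads. At 48 h the normalized counts were 10.4, 5.65, 8.80 and 8.26. The 96 h samples held 24.4, 21.0, 7.53 and 15.1. The 8 h, 48 h and 96 h samples were all above the 0 h samples, and the 24 h samples overlapped them.

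*Rbp4* was called higher than 0 h at 4 h (log2 fold change 2.02 ± 0.53, adjusted p = 0.0028), 8 h (2.72, adjusted p = 1.1e-04), 16 h (2.28, adjusted p = 7.0e-04), 48 h (2.57, adjusted p = 8.8e-05) and 96 h (3.44, adjusted p = 1.0e-06), but not at 24 h (0.54, adjusted p = 0.40). It was the only plasma protein gene called higher at 4, 8 or 16 h, times at which 2.69%, 3.4% and 4.03% of all tested genes were called higher. The call at 4 h was lost without replicate 1 or 4 of 0 h (1.81 in each case) or without replicate 3 or 4 of 4 h (1.88 and 1.65), and the change was 1.08 in replicates 1 and 2 and 2.95 in replicates 3 and 4. With a pseudocount of 5 all calls of *Rbp4* were lost (1.89 at 96 h, adjusted p = 8.7e-07). The rise from 24 h to 48 h (2.03 ± 0.53, adjusted p = 0.0020) fell under 4-fold without replicate 2 or 3 of 24 h (1.87 and 1.64) or replicate 1 or 3 of 48 h (1.92 and 1.99). That rise was 1.501 in replicates 1 and 2, with no call (adjusted p = 0.073), and 2.55 in replicates 3 and 4. It was also just under 4-fold when scaled by total reads (1.9985) or the upper quartile (1.90), and the latter ended the call at 4 h too (1.99). The changes against 0 h were 2.32 and 2.83 in the 2 sets at 48 h, and 3.76 and 3.13 at 96 h. All 4 of the 0 h samples were at or under 3 reads, and against that floor the 96 h mean was at least 4.77-fold higher and the 8 h mean at least 2.67-fold.

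*Apoa2* (plus strand, chr1:171225054-171226379) encodes the second protein of high-density lipoprotein by amount. It was expressed in the undifferentiated cells, with normalized counts of 232, 177, 115 and 110 at 0 h. The 24 h samples held 18.0, 28.2, 24.4 and 11.4, and those of 48 h held 3.77, 5.65, 6.16 and 6.19. By 96 h the counts were 9.55, 6.31, 5.02 and 3.78. From 4 h on every sample was below every 0 h sample. The mean went from 158 ± 57.7 (SD, n = 4) to 101 ± 13.1 at 2 h, 75.9 ± 5.88 at 8 h and 52.2 ± 2.25 by 16 h. Relative to 0 h, the 48 h mean was 29.1-fold lower and that of 96 h was 25.7-fold lower.

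The log2 fold change of *Apoa2* against 0 h was -0.98 ± 0.24 at 8 h (adjusted p = 0.0015) and -1.52 ± 0.24 at 16 h (adjusted p = 6.1e-06), both under 4-fold. It was called lower at 24 h (-2.89, adjusted p = 1.9e-11), 48 h (-4.58, adjusted p = 1.8e-16) and 96 h (-4.47, adjusted p = 1.9e-16). At 24 h *Apoa2* was the only one of the 5 tested genes called lower, with 4.34% of all tested genes called in that direction. The 0 h level was higher in replicates 1 and 2 than in replicates 3 and 4, and the 48 h change was -5.17 in the first set and -3.98 in the second. Between 48 h and 96 h *Apoa2* showed no call (0.11 ± 0.24, adjusted p = 0.74).

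*Apoe* (minus strand, chr7:19696109-19699188), the receptor ligand of lipoprotein particles, was the most abundant plasma protein gene at every time. The 0 h samples held 6072, 5145, 3740 and 3653 normalized counts, and the 24 h samples 5114, 5704, 4301 and 4120. The 48 h samples held 6435, 6169, 4982 and 4644, and the 96 h samples 1286, 1278, 904 and 963. The 96 h samples were all below every other sample, and the 24 h and 48 h samples overlapped those of 0 h. *Apoe* alone took 0.0619% ± 0.0145 of the reads on genes at 0 h, with 0.0679% ± 0.0132 at 48 h and 0.0123% ± 0.00247 by 96 h (SD, n = 4). The other 9 genes summed to 0.00238%, 0.00657% and 0.00218% at those times.

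Against 0 h *Apoe* changed by -0.54 ± 0.16 at 4 h (adjusted p = 0.0063), 0.21 ± 0.16 at 16 h (adjusted p = 0.29) and 0.28 ± 0.16 at 48 h (adjusted p = 0.12). The 4 h change was -0.61 in replicates 1 and 2 and -0.47 in replicates 3 and 4. Its evidence depended on how the replicates were treated. Averaging them within the 2 sets gave a limma adjusted p of 0.14 at 4 h and 0.36 at 48 h. Fitting limma with replicate blocks gave 1.1e-06 at 4 h and 0.002 at 48 h. Both changes were under 4-fold. At 96 h *Apoe* was called lower, by -2.05 ± 0.16 (adjusted p = 6.3e-13), with a mean 4.20-fold below 0 h. That value sits at the 4-fold limit. It was -1.99 in replicates 3 and 4 alone, and the call was lost without replicate 1 or 2 of 0 h (-1.92 and -1.99) or replicate 3 or 4 of 96 h (-1.96 and -1.99), while the adjusted p stayed at or below 1.6e-11 in those 4 fits. Against 48 h the fall was -2.33 ± 0.16 (adjusted p = 6.4e-13), and was -2.30 in replicates 1 and 2 and -2.37 in replicates 3 and 4.

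**Figure D2:**
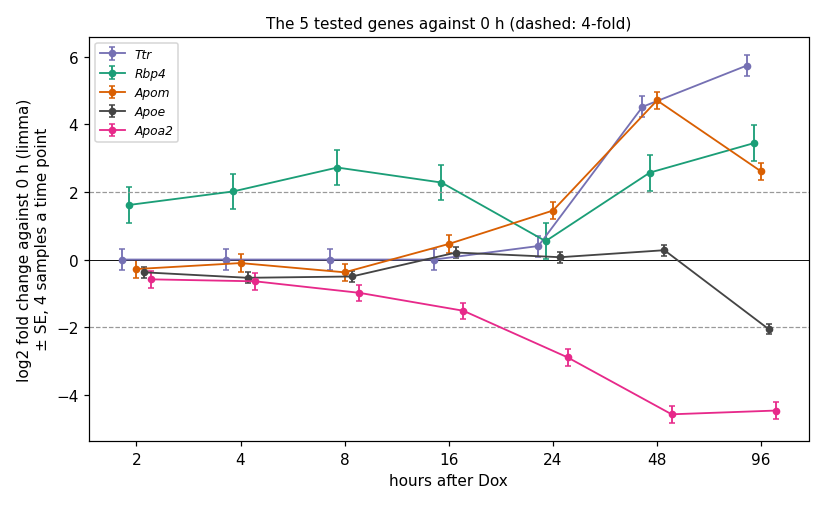
Log2 fold change against 0 h with its SE from limma (vertical) at 2 to 96 h (horizontal) for the 5 tested plasma protein genes, 4 samples a time point; dashed lines mark 4-fold. *Apom* and *Ttr* leave the others at 48 h, at 4.71 and 4.52, *Apoa2* falls to -4.58 at 48 h and is at -4.47 at 96 h, *Rbp4* is above 0 at 8 h and back near it at 24 h (0.54), and *Apoe* moves past the limit at 96 h (-2.05).

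In all, 3 of the 5 tested genes were called higher at 48 h against 0 h and 1 lower, where 8.48% of all 15227 tested genes were called higher and 7.09% lower. At 96 h 3 were called higher and 2 lower, against 9.28% and 10.3% of all genes. Between 24 h and 48 h 3 were called higher (*Apom*, *Ttr* and *Rbp4*), with 2.51% of all genes, and between 48 h and 96 h 2 were called lower (*Apoe* and *Apom*) and none higher, with 2.4% of all genes lower. The median log2 fold change of the 5 was 2.57 at 48 h and 2.61 at 96 h, and that of all tested genes was -0.02 and -0.03. A gene that passed the filter through the times at which it was high had to differ between times. *Ttr* passed only through its 48 h and 96 h samples, and *Rbp4* through 7 samples, all later than 0 h. These counts and medians therefore describe the 5 and not all 10. The same limit applies to any marker or gene of the lists below that passed only through its high times.

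Per kilobase of exon, which allows levels of different genes to be compared, the order at 0 h was *Apoe* (2176 ± 546 normalized counts per kb, SD, n = 4), *Apoa2* (295 ± 107) and *Apom* (18.0 ± 3.68), with the rest below 1. At 48 h it was *Apoe* (2599 ± 410), *Apom* (493 ± 90.0), *Ttr* (19.0 ± 4.92), *Apoa2* (10.1 ± 2.13) and *Rbp4* (6.16 ± 1.46). At 96 h it was *Apoe* (518 ± 94.9), *Apom* (113 ± 13.2), *Ttr* (44.4 ± 5.20), *Rbp4* (12.7 ± 5.51) and *Apoa2* (11.5 ± 4.62), the last pair within their spread. *Apoa2* thus moved from the second place at 0 h to the lowest of the 5 at 96 h, and *Apom* held the second place at 48 h and 96 h.

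Of the 5 genes at the limit of detection, *Afp* (plus strand, chr5:90490737-90508907) had 50 reads in all 32 samples together. At 0 h replicates 1 to 4 held 0, 1, 0 and 0 reads of *Afp*. The 48 h samples held 1, 1, 0 and 0, and those of 96 h held 2, 6, 2 and 6. Each 96 h sample was above each 0 h sample in normalized counts, at a mean of 4.15 ± 2.14 (SD, n = 4). The 8 h samples, with 3, 1, 3 and 4 reads, were also all above the 0 h samples in normalized counts. Replicate 2 of 8 h and replicate 2 of 0 h each held 1 read, at 0.893 and 0.679, and differed only by size factor. Replicate 2 of 4 h, at 7.27, was above every 96 h sample, with 3 reads in the library of lowest depth. In a fit without the filter on low counts, *Afp* at 96 h had a log2 fold change of 2.08 ± 0.53 (adjusted p = 0.0017), past both limits of a call. At 8 h the change in that fit was 1.42 ± 0.53 (adjusted p = 0.058), under 4-fold. The 96 h mean was 1.16 times the floor of 3 reads per library at 0 h.

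*Apoa1* (plus strand, chr9:46228580-46230466), the main protein of high-density lipoprotein, held at most 3 reads in a sample and 22 in all. *Apoa4* (plus strand, chr9:46240696-46243459), its neighbour, had no read up to 24 h. The 48 h samples held 3, 1, 8 and 1 reads of it, and those of 96 h held 0, 1, 0 and 1. In the fit without the filter the 48 h change of *Apoa4* was 1.87 ± 0.25 (adjusted p = 2.4e-07), under 4-fold and at a mean of 3.20 normalized counts, below the floor.

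*Apob* (plus strand, chr12:7977648-8016835), which has 13934 bases of exon, held 72 reads over the 32 samples. It held 1, 3, 3 and 1 reads at 0 h, 4, 6, 7 and 3 at 16 h, and none in the 4 samples of 96 h. The 96 h samples were below all 0 h samples (log2 fold change -1.54 ± 0.34 without the filter, adjusted p = 3.8e-04, under 4-fold), with both groups at or under the floor. *Apoc2* (minus strand, chr7:19671579-19677941) held 1 read in the whole series, in replicate 4 of 16 h. The annotation holds another gene model, *Gm44805*, that spans *Apoc2* and *Apoc4*, with 0 reads in every sample. How the counting treated reads in exons shared by overlapping models is not given in the sources used here, so a low count of *Apoc2* is uncertain. *Afp* and *Apoa4* overlap antisense models, and whether the counting used strand is likewise not given.

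*Apoe* and *Apoc2* belong to a cluster of apolipoprotein genes on chromosome 7, and *Apoa1* and *Apoa4* to another on chromosome 9. *Apoc1*, a small apolipoprotein 3449 bases from *Apoe* and on the same strand, was at 466 ± 90.8 normalized counts at 0 h, 685 ± 256 at 48 h and 77.6 ± 24.4 at 96 h (SD, n = 4). It was called lower at 96 h against 0 h (-2.60 ± 0.22, adjusted p = 5.1e-12) and against 48 h (-3.10 ± 0.22, adjusted p = 1.4e-12), as *Apoe* was. *Tomm40*, a mitochondrial import gene 2125 bases on the other side of *Apoe*, changed by -0.49 ± 0.09 at 96 h against 0 h, under 4-fold. *Nectin2*, 17456 bases away, changed by 1.63 ± 0.09. *Apoc4* held at most 2 reads in a sample. On chromosome 9 *Apoc3*, between *Apoa1* and *Apoa4*, held at most 1 read.

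**Figure D3:**
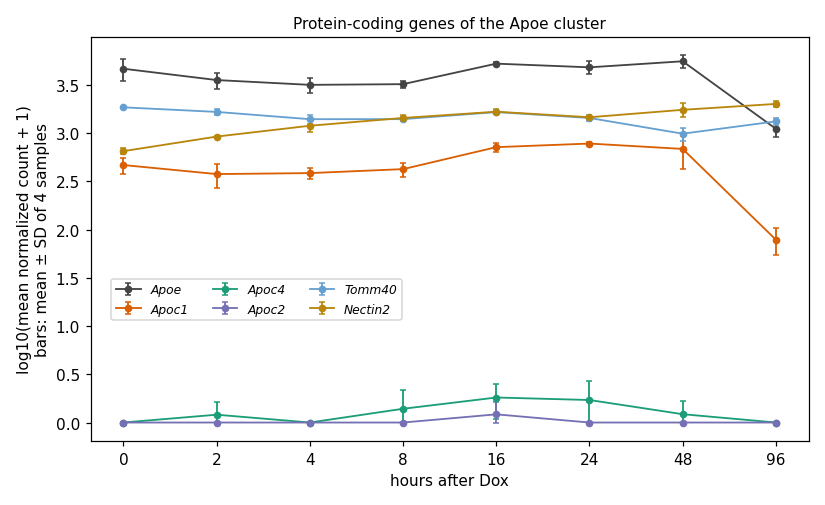
Mean normalized counts as log10(mean + 1) (vertical; bars, mean ± SD of 4 samples) of *Apoe* and of protein-coding genes within 25 kb of it, at 0 to 96 h (horizontal). *Apoe* and *Apoc1* are lowest at 96 h, at 1108 and 77.6, *Tomm40* and *Nectin2* are at 1323 and 2008 at 96 h, and *Apoc4* and *Apoc2* are near 0; *Gm44805*, with 0 reads, is not drawn.

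Around *Apom*, 7 protein-coding genes lay within 25 kb, of which 5 were tested and none was called at 48 h or 96 h. The nearest, *D17H6S53E*, lies 142 bases away on the other strand. It was at 53.4 ± 6.19 at 0 h, 193 ± 20.9 at 48 h and 207 ± 15.6 at 96 h, with a log2 fold change of 1.84 ± 0.16 at 48 h (adjusted p = 3.5e-11), just under 4-fold, and 0.10 ± 0.16 from 48 h to 96 h, over which *Apom* fell. Around *Apoa2* 3 of 5 neighbours were tested and none was called, with *Tomm40l*, 2540 bases away, at -0.86 ± 0.15 at 48 h. *B4galt6*, 10278 bases from *Ttr*, changed by -0.14 ± 0.12 at 48 h. *Sik3*, 4386 bases from *Apoa1*, changed by -0.61 ± 0.17. *Rbp4* had 2 neighbours and *Afp* 2 (*Alb* and *Afm*), none of which passed the filter.

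Another 104 genes of lipoprotein and liver-type secretion, in 5 lists, were measured beside the plasma protein genes, and 63 were tested. Of these 21 were called higher and 8 lower at 48 h, and 24 higher and 11 lower at 96 h. Their median log2 fold change was 1.03 at 48 h and 0.68 at 96 h, and that of all tested genes was -0.02 and -0.03. Of all tested genes 8.48% were called higher and 7.09% lower at 48 h, and 9.28% and 10.3% at 96 h. The counts of each list below are to be read beside these shares. Some of the called genes passed the filter only through the times at which they were high, and had to differ between times. A list with 1 of 15 or 1 of 18 called lower is near or under them. *Mttp*, whose product loads lipid onto ApoB, went from 24.0 ± 5.48 normalized counts at 0 h to 856 ± 122 at 48 h and 463 ± 35.6 at 96 h (log2 fold changes 5.11 and 4.23), while *Apob* itself stayed at the floor. Of the 15 genes of lipoprotein assembly and export, *Mttp*, its partner subunit *P4hb*, the cargo receptor *Surf4* and the lipid exporter *Abca1* were called higher at 48 h and again at 96 h, with *Lcat* at 96 h, and *Abcg1* was called lower at both times. *P4hb* was at 5856 ± 222 at 0 h and 33751 ± 432 at 96 h, and *Abca1* at 95.7 ± 56.9 and 1027 ± 49.5.

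Of the receptors and lipases, 5 of 16 tested were called higher at 48 h and 2 lower, and 7 were higher and 4 lower at 96 h. The 5 were *Cubn*, *Amn* and *Lrp2*, which form the endocytic receptors of visceral endoderm, the adaptor *Dab2*, and *Stra6*, the cell surface receptor of RBP4. *Cubn* was at 3.93 ± 1.28 at 0 h, 27062 ± 11570 at 48 h and 16994 ± 3876 at 96 h. *Lrp2* was at 45.1 ± 23.5, 17826 ± 10383 and 18157 ± 4053. *Stra6* was at 1.19 ± 0.56 at 0 h, 59.3 ± 43.1 at 48 h and 523 ± 132 by 96 h. *Stra6* was thus highest at the time at which *Rbp4* and *Ttr* were. It passed the filter only through samples of 48 h and 96 h, so its calls add no independent support to its counts. The lipases and their inhibitors went the other way in part, with *Lipc* and *Angptl4* called lower at both times, while the endothelial lipase gene *Lipg* was called higher at 96 h (21.1 ± 5.08 at 0 h, 324 ± 43.3 at 96 h).

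Of 12 other apolipoprotein genes 7 were tested. *Apobr*, a receptor gene, was called higher at 48 h and *Apod* and *Apof* lower, and at 96 h *Clu* and *Apobr* were called higher and *Apod*, *Apof* and *Apoc1* lower. *Apod* went from 147 ± 32.7 at 0 h to 7.11 ± 1.80 at 48 h and 2.06 ± 1.74 at 96 h. *Clu* (apolipoprotein J) went from 92.8 ± 25.8 at 0 h to a mean of 1941 at 8 h, then to 226 ± 83.8 at 48 h and 3297 ± 438 by 96 h, so that, like *Rbp4*, it was lower between an early and a late high level.

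Of 32 other liver-type plasma proteins 7 passed the filter and 17 never exceeded 3 reads in any sample. Called higher at 48 h were *Fgb* (fibrinogen beta), *F2* (prothrombin) and *C3* (complement), and at 96 h *Fgb* and *F2*. *Fgb* had no read at 0 h and was at 29.2 ± 14.3 at 48 h and 48.4 ± 12.8 at 96 h, and *F2* went from 7.27 ± 2.63 to 83.9 ± 5.09 and 122 ± 17.1. *Fetub* and *Gc* were called lower at both times, *Fetub* from 541 ± 30.9 to 84.2 ± 2.05 and 8.59 ± 4.62. *Fgb* was already called higher at 24 h, at a mean of 4.94. *C3* was at 15.6 ± 4.49 at 48 h and 3.53 ± 1.42 at 96 h. *Fgb* passed the filter only through its 48 h and 96 h samples, and *C3* only through those of 48 h. Calls of these genes therefore add no independent support to their counts.

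Of 18 tested regulators of liver-type genes, 8 were called higher and 1 lower at 48 h, with a median log2 fold change of 1.71, and 8 higher and 1 lower at 96 h. *Hnf4a*, a nuclear receptor that activates many apolipoprotein genes in liver, was at 6.60 ± 2.65 at 0 h, 800 ± 47.3 at 48 h and 335 ± 24.5 at 96 h, with its peak at the same time as *Apom* and *Mttp*. It was named after its values were seen. *Foxa2*, a forkhead factor of endoderm, was at 0.67 ± 0.89, 391 ± 54.1 and 630 ± 105 at these times. *Gata4*, a GATA factor of extraembryonic endoderm, rose from 26.0 ± 9.14 to 5738 ± 861 at 48 h. The SOX factors *Sox7* and *Sox17* were among the largest rises at 96 h, from 5.24 ± 2.70 to 2000 ± 239 and from 4.89 ± 2.43 to 1511 ± 167. The gene called lower was *Nr5a2*, an orphan nuclear receptor also active in ES cells, from 814 ± 36.0 at 0 h to 16.6 ± 6.21 at 48 h.

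**Figure D4:**
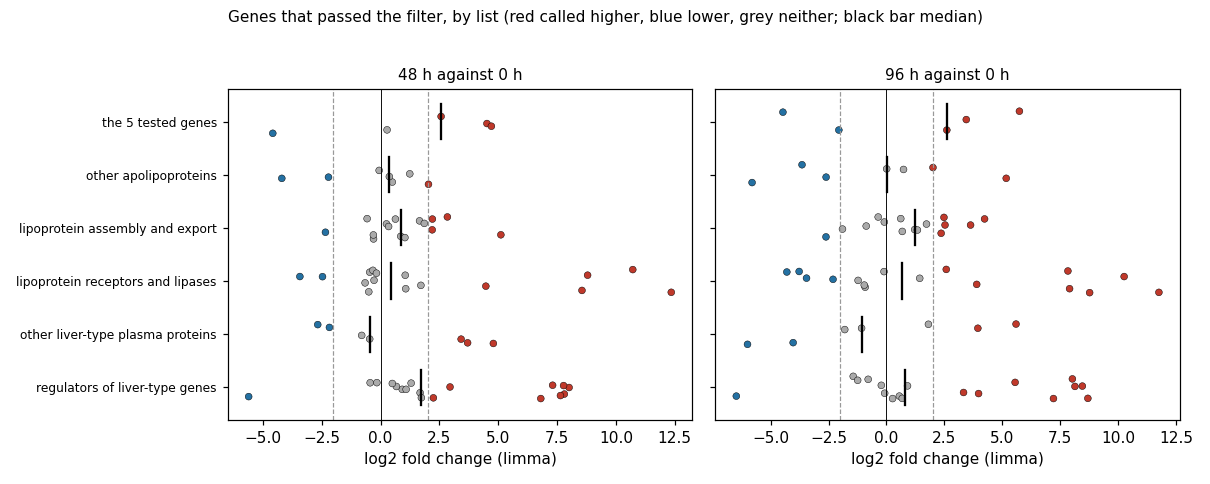
Log2 fold change (horizontal, limma) at 48 h and 96 h against 0 h for the tested genes of each list; each point is 1 gene, red called higher, blue called lower, grey neither, the black bar is the median and dashed lines mark 4-fold. The 5 tested plasma protein genes spread from -4.58 to 4.71 at 48 h, and the receptors and regulators reach farthest to the right.

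Genes with a profile most like each tested plasma protein gene were ranked by Pearson's r of log2 levels over the 32 samples, among 11663 genes with a mean of at least 50 at some time. The values share libraries and a time course and are descriptions. *Ttr* was closest to *S100g* (0.993), a calcium-binding protein gene, followed by *Cotl1* and *Bsg*. *Rbp4* was closest to *Cyp26a1* (0.845), followed by *Kctd10* (0.827) and *Rhoc* (0.805). *Cyp26a1* encodes a retinoic acid hydroxylase and had no read at 0 h. Its mean was 157 at 8 h, then 1.32 at 24 h and finally 405 at 96 h. *Apoa2* was closest to *Fcgr2b*, *Hsd17b14* and *Morc1* (0.981, 0.980 and 0.977), whose means at 48 h and 96 h were below those of all earlier times, as were its own. *Apom* was closest to *Grina* (0.965), *Myo7a* and *Kdelr1*, and *Apoe* to *Fstl1* (0.948), *Ly6g6e* and *Bst2*. Among the 5 themselves r ranged from -0.89 between *Apom* and *Apoa2* to 0.84 between *Apom* and *Ttr*, and was -0.05 between *Apom* and *Apoe*.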

How the data were processed

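Poly(A) RNA of 32 KH2 samples was sequenced as single 50-base reads. Per the labels and the study's methods, the authors checked reads with FastQC 0.11.8, trimmed them with cutadapt 2.7, mapped them to GRCm38.p6 with HISAT2 2.1.0 and counted them per gene with featureCounts (Subread 1.6.4) on GENCODE m18. The deposited values are log2 values after the authors' variance stabilizing transformation. They were inverted here: 100% of values came out as whole reads within 1e-06, and reads divided by the authors' size factors were used as normalized counts. limma 3.58.1 (R 4.3.3, trended variance) was fitted to log2(normalized count + 1) over all 8 time points, on 15227 genes with at least 10 normalized counts in 4 samples. Calls needed FDR below 0.1 (Benjamini-Hochberg within each of 13 comparisons) and 4-fold. The script was tested on simulated data without a difference between replicate sets. No changed gene in them was near the floor at 0 h, so that test does not cover such genes. Because the deposited unit is log2, this fit gave the reported calls, and the recovered reads were modelled with limma-voom as an alternative. A single read was worth between 0.626 and 2.42 normalized counts.

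The members and the lists were chosen with earlier results of these data known. Text names all members, neighbours within 25 kb, the 3 most similar genes, and per list the called genes with the largest changes, up to 3 in each direction; 1 gene is left out of the text. Coordinates are from GENCODE M21 (GRCm38), later than the authors' release, and promoters from RefSeq. Alternatives were other pseudocounts, filters, scalings, replicate blocks and sets, limma-voom, the deposited values, and leaving out each replicate.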

Additional observations from a re-analysis of the deposited data

How the results depend on the processing

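The counts of plasma protein genes called at 48 h and 96 h were recomputed under each alternative. With a mean of at least 50 normalized counts required, which leaves *Ttr* and *Rbp4* untested, 1 gene was called higher at 48 h and 1 at 96 h in place of 3, and the other pathway genes called lower were 5 at 48 h and 7 at 96 h (alternatives for those genes were chosen after seeing the data). In replicates 3 and 4 alone 1 gene was called lower at 96 h, and leaving out single replicates gave 1 to 2, with *Apoe* on either side of the 4-fold limit. The number called higher at 96 h against 48 h was 0 by limma in every alternative, with 1 gene, *Ttr*, rising at an unadjusted p under 0.05.

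Changes that were not called turned direction in a few alternatives, and the cause was not tested. In replicates 1 and 2 alone the change against 0 h of *Apom* was 0.25 at 4 h and -0.068 at 16 h, and that of *Apoe* -0.052 at 16 h and -0.049 at 24 h. In replicates 3 and 4 alone *Apoa2* was at -0.42 at 96 h against 48 h. Leaving out single replicates gave ranges of -0.28 to 0.037 for *Apom* at 4 h, -0.036 to 0.21 for *Apoe* at 24 h, and -0.10 to 0.28 for *Apoa2* at 96 h against 48 h. *Rbp4* lost its calls with a pseudocount of 5 (1.22 at 48 h and 1.89 at 96 h against 0 h) and, on the deposited values, those before 96 h (1.69 at 48 h). It gained one at 2 h without replicate 2 of 2 h (2.09), with a pseudocount of 0.5 (2.08) and in replicates 3 and 4 alone (2.31). No called change turned direction.

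Scaling by total reads or by the upper quartile moved the median of all tested genes at 96 h against 0 h to -0.29 and -0.32, from -0.03, and *Apoe* to -2.32 and -2.35. These scalings ended the call of *Rbp4* at 48 h against 24 h (1.9985 and 1.90), and the upper quartile that at 4 h against 0 h (1.99). The replicate block left the counts of plasma protein genes at 3 higher at 48 h, 3 higher and 2 lower at 96 h. Samples of the same replicate number correlated in their deviations by 0.196 on average (lowest -0.04), and differently numbered samples within a set by 0.196 too, so the numbers were not taken as pairs. Depth limits what can be said of *Afp*, *Apoa1*, *Apoa4*, *Apob* and *Apoc2*, whose reads never exceeded 8 in a sample.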
